A study of Rattus norvegicus with 12 samples.

Results

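The comparison described here asks which transcripts Wnt3a changed in ND7/23 cells that were given menthol at the same time. ND7/23 is a cell line obtained by fusing mouse neuroblastoma cells with neurons of the rat dorsal root ganglion. The study treated the line for 6 h and sequenced messenger RNA from 12 libraries, 3 in each of 4 groups. The control group received neither agent, the menthol group received 100 μM menthol, the Wnt3a group received 100 ng/ml Wnt3a, and the group called menthol with Wnt3a received both at those concentrations. Menthol opens the cation channel TRPM8, and Wnt3a is a secreted protein. The comparison rests on 6 of the 12 libraries, those of menthol with Wnt3a and of menthol, which differ by the addition of Wnt3a alone. The deposited values are FPKM, the reads of a gene scaled by its length and by the reads of its library, and 11451 of the 21556 genes listed were tested because their mean over the 12 libraries was at least 0.5 FPKM. No label says whether the 3 libraries of a group came from separate cultures, so p-values measure the spread between these libraries, which may be technical.

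In the canonical pathway, Wnt ligands bind Frizzled receptors with an LRP5 or LRP6 co-receptor. This stops a destruction complex built on AXIN, APC and the kinase GSK-3β from marking β-catenin for degradation, and β-catenin then enters the nucleus and acts with TCF/LEF factors at target genes. Several targets, among them *Axin2*, encode brakes on the pathway, so their messenger RNA is widely used to read its activity. Much of the pathway runs on protein stability and phosphorylation, which RNA levels do not measure.

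The 12 libraries held 36914722 to 38837023 reads on genes, recovered as whole counts from the steps of the FPKM values, and 16983 to 17386 genes were above 0. In every pair of libraries from the same group the counts differed beyond sampling noise, with a chi-square per degree of freedom of 3.63 to 8.39 over the tested genes. Defining transcripts of sensory neurons were at or near 0. Only 3 of 19 sensory neuron markers reached a mean of 1 FPKM (*Isl1*, *Runx1* and *Runx3*), whereas *Pou4f1*, *Scn9a*, *Scn10a* and *Scn11a* had means of 0.000223 to 0.00742 FPKM. Of 17 general neuronal markers 4 reached 1 FPKM (*Uchl1*, *Ncam1*, *Map2* and *Nefh*), and *Tubb3*, *Prph*, *Nefl* and *Elavl4* were at most at 0.142 FPKM in any library. Fibroblast markers were present in 13 of 16 cases, with *Vim* at a mean of 884 FPKM and *Col1a2* at 115 FPKM, so the transcripts counted here do not carry the sensory neuron profile that the label implies. The summed level of the fibroblast list was 1239 to 1288 FPKM in menthol libraries and 1240 to 1251 FPKM with Wnt3a added, that of the glial list 42.2 to 46.6 and 46.8 to 51.0 FPKM, and that of the neuronal list 121.0 to 130.2 and 119.6 to 130.8 FPKM. The glial ranges do not overlap. They rest mostly on *Pmp22* at a mean of 44.2 FPKM, while *Sox10* and *S100b*, which define these cells, had means of 0.00144 to 0.0413 FPKM, and the part of this shift in the results below was not tested. All 4 glial genes tested had log2 fold changes above 0 with Wnt3a added, as did 52.6% of all genes. Their median was 0.22, and 2 had a limma unadjusted p under 0.05, beside 3.45% of all genes raised by that rule. None of them passed after adjustment. In bulk RNA, fewer cells of a type and less RNA per cell cannot be told apart.

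Few transcripts passed the test for Wnt3a when menthol was present, and all of them changed by less than 2-fold. At an adjusted p under 0.05 (limma on log2(FPKM + 0.1), all 4 groups in 1 fit, Benjamini-Hochberg adjustment over the 11451 genes) 11 genes were called, which is 0.0961% of those tested. Of these, 9 rose (0.0786%) and 2 fell (0.0175%), and none passed a 2-fold change. A count-based fit, limma voom on the recovered reads, called 33 genes, 9 of them among the 11. The 2 that it did not call were *Irx5* and *Tmem158*. At an unadjusted p under 0.05 there were 769 genes (6.72%), 395 of them above 0 (3.45%) and 374 below (3.27%). The 3 libraries with Wnt3a lay entirely above or entirely below the 3 with menthol alone for 1292 genes (11.3%), and the median absolute log2 fold change of the tested genes was 0.046. The called genes had mean levels from 6.34 to 668 FPKM and at least 810 reads in each of the 6 libraries, and their log2 fold changes were 0.22 to 0.72 in size. Fold changes come from log2(FPKM + 0.1), unless limma voom is named as their source, and so are pulled toward 0 where FPKM is low.

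**Figure D1:**
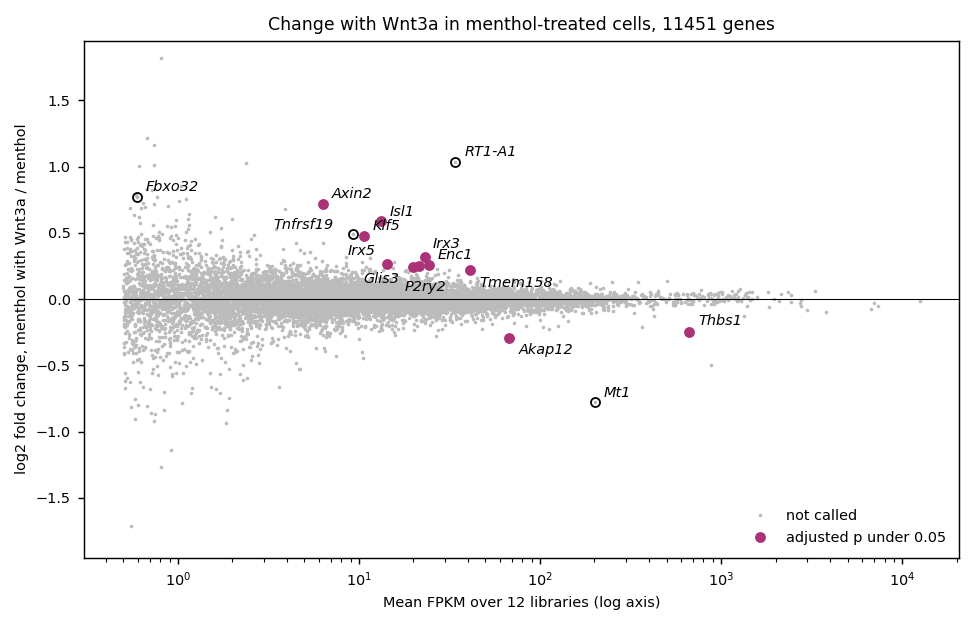
Each point is 1 of the 11451 tested genes, plotted by its mean FPKM over the 12 libraries (log axis) and its log2 fold change for menthol with Wnt3a over menthol. The 11 called genes (filled) all had means of at least 6.34 FPKM, and open circles mark 4 genes discussed in the text that were not called.

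*Axin2*, the scaffold protein that rebuilds the destruction complex, had the largest change among the called genes. It stood at 4.55, 5.19 and 5.28 FPKM in the menthol libraries and at 7.83, 8.71 and 8.37 FPKM in those with Wnt3a. The groups did not overlap, and the lowest library with Wnt3a lay well above the highest with menthol alone. The rise was 1.65-fold (log2 fold change 0.72, SE 0.0718, 95% confidence interval 0.57 to 0.87, limma adjusted p = 0.000645). The 250 bases before its RefSeq start site are shown because they hold, in capitals, 2 copies of the core letters read by TCF/LEF factors (CTTTGAA or CTTTGAT, searched on both strands). They begin 232 and 132 bases before the start and lie on the strand of the gene. The sequence is from RefSeq on the build GRCr8, plus strand, chr10:94398535-94398784.
*Axin2*: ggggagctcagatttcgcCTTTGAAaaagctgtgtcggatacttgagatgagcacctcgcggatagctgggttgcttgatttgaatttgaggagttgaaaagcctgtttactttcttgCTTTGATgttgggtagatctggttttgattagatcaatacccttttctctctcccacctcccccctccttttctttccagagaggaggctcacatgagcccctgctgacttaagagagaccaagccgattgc
In windows of 300 bases around the start (250 before and 50 after), 8.64% of 27457 rat promoters held at least 1 such match, 5.58% of those of tested genes did, and 0.583% of all held 2 or more. Promoters were found for 9 of the 11 called genes, all but *Enc1* and *Irx5*, and *Axin2* was the only one of the 9 with a match. A match is a run of letters and not a shown binding site, and the letters of *Klf5*, printed for contrast because its change was as firm, hold none (GRCr8, plus strand, chr15:82471831-82472080).
*Klf5*: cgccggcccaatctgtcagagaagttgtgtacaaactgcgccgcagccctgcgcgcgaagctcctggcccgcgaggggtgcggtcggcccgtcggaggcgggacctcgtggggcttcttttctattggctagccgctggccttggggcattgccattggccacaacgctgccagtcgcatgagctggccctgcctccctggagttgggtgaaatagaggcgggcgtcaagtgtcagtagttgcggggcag

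*Klf5*, a zinc finger transcription factor of proliferating and epithelial cells, had the same smallest adjusted p. Its level was 9.29, 9.52 and 8.65 FPKM with menthol and 12.8, 12.4 and 13.1 FPKM with both agents. Again no library of one group reached the other, and the rise was 1.39-fold (log2 fold change 0.48, SE 0.0459, adjusted p = 0.000645). *Isl1*, a LIM homeodomain factor that specifies sensory and motor neurons, measured 10.7, 9.28 and 10.8 FPKM with menthol and 15.8, 15.6 and 15 FPKM with Wnt3a added. Its rise was 1.5-fold (log2 fold change 0.59, SE 0.0727, adjusted p = 0.00531). These 3 genes passed in all 12 fits that left out 1 library, with adjusted p up to 0.00671 for *Klf5*, 0.00796 for *Axin2* and 0.0481 for *Isl1*.

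A pair of Iroquois homeobox genes rose together. *Irx3* was at 21.2, 22.2 and 22.6 FPKM with menthol and at 27.1, 26.9 and 28.2 FPKM with Wnt3a added, a 1.24-fold rise (log2 fold change 0.32, SE 0.0425, adjusted p = 0.0109). *Irx5* was at 13.6, 12.4 and 13.3 FPKM against 15.6, 16.4 and 15.3 FPKM (log2 fold change 0.27, SE 0.0438, adjusted p = 0.0395), and limma voom did not call it (voom adjusted p = 0.0776). Both encode transcription factors of patterning, and in the RefSeq annotation of GRCr8 they are neighbours on chromosome 19 with 0 protein-coding genes between them. Of the 7 other annotated genes in that interval, the one next to *Irx5* is the long non-coding RNA *Crnde*, which was looked up after the values of the *Irx* genes were seen. *Crnde* stood at 19.3, 19.9 and 20 FPKM with menthol and 22.3, 24.4 and 23.9 FPKM with both agents (log2 fold change 0.25, SE 0.0589, adjusted p = 0.234). Its groups did not overlap either, but it was not called. Whether the counting used strand is not given in the sources used here, so reads from any antisense overlap of *Irx5* and *Crnde* may not be told apart.

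The other 4 genes that rose changed by less. *Tmem158*, a membrane protein first described as induced by Ras, went from 37.6, 36.6 and 38.4 to 44.2, 43.8 and 42.9 FPKM (log2 fold change 0.22, adjusted p = 0.0354). Limma voom did not call *Tmem158* (voom adjusted p = 0.0676). *Enc1*, an actin-binding Kelch protein of ectodermal and neural tissue, went from 21.3, 22.6 and 22.6 to 26.5, 26.2 and 26.9 FPKM (log2 fold change 0.26, adjusted p = 0.0395). In both genes the 3 libraries with Wnt3a lay close together above the others. *Glis3*, a Krüppel-like transcription factor, had 17.9, 18.6 and 17.8 FPKM with menthol and 21.6, 21.9 and 20.9 FPKM with both (log2 fold change 0.24, adjusted p = 0.0395). *P2ry2*, a G protein-coupled receptor for extracellular ATP and UTP that raises intracellular calcium, had 19.6, 20.8 and 19.9 against 23.3, 24.5 and 24.1 FPKM (log2 fold change 0.25, adjusted p = 0.0430).

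Both genes that fell were abundant. *Thbs1*, thrombospondin 1, a secreted glycoprotein that binds matrix and activates TGF-β, stood at 711.0, 700.2 and 689.3 FPKM with menthol and at 587.9, 613.3 and 569.4 FPKM with Wnt3a added. The fall was 1.19-fold (log2 fold change −0.25, SE 0.0359, adjusted p = 0.0199). *Akap12*, a scaffold that anchors protein kinase A at the membrane, stood at 76.4, 67.8 and 71.7 against 60.9, 57.5 and 58.0 FPKM (log2 fold change −0.29, SE 0.0473, adjusted p = 0.0395). For both, every library with Wnt3a was below every library with menthol alone.

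**Figure D2:**
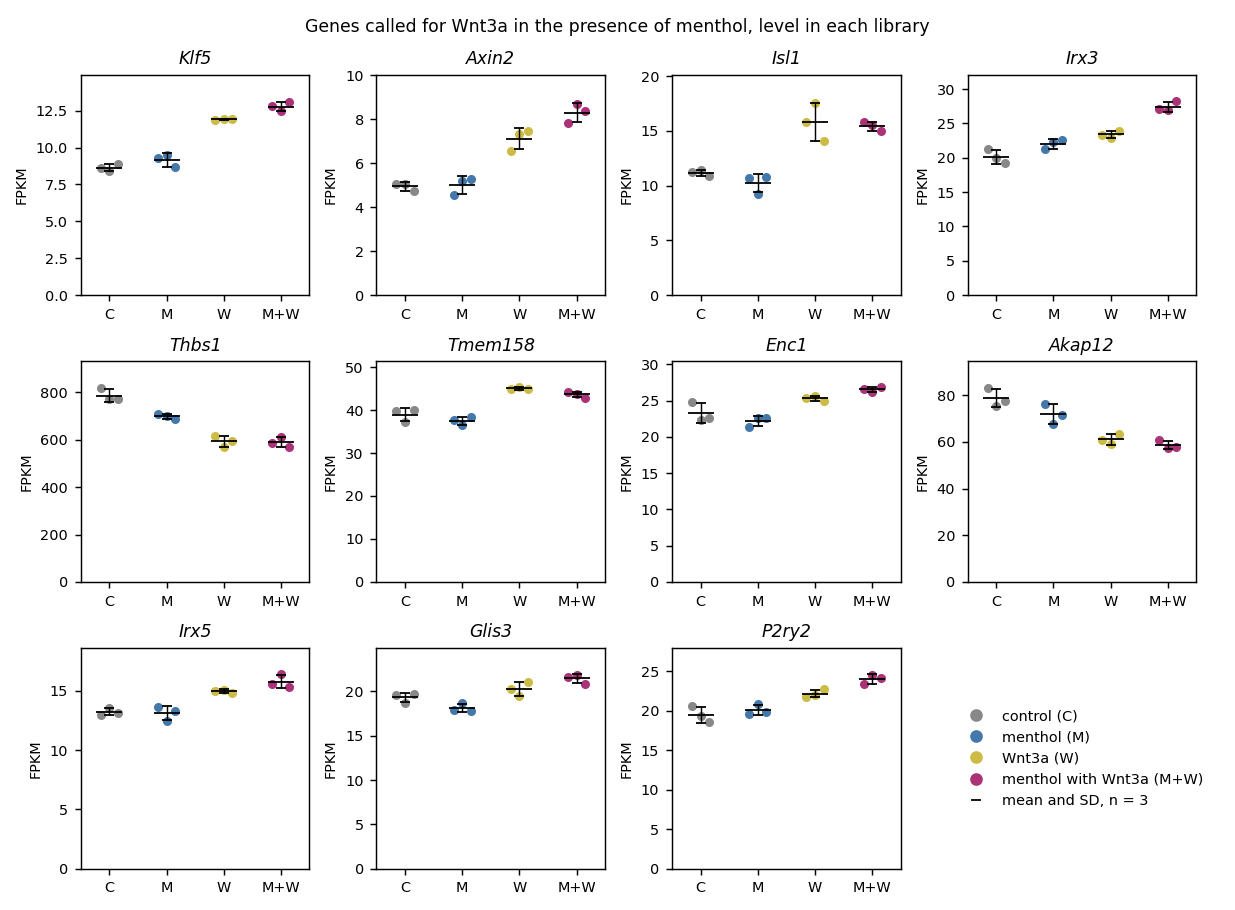
FPKM of the 11 called genes in each library of the 4 groups (control C, menthol M, Wnt3a W, menthol with Wnt3a M+W), with points for libraries and a bar for the mean with its SD (n = 3). In every panel the M+W points lie apart from the M points, above them for 9 genes and below them for *Thbs1* and *Akap12*.

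The calls beyond *Axin2*, *Klf5* and *Isl1* depended on single libraries. Without menthol replicate 1, or without replicate 1 or 3 of menthol with Wnt3a, 3 genes were called, and without menthol replicate 3 there were 4. Leaving out control replicate 3, Wnt3a replicate 1 or replicate 2 of menthol with Wnt3a gave 5, leaving out control replicate 2 gave 6 and leaving out menthol replicate 2 gave 7. The counts were 10 without Wnt3a replicate 2, 13 without Wnt3a replicate 3 and 14 without control replicate 1. *Irx3* was lost in 3 of the 12 fits (adjusted p = 0.0811 without menthol replicate 1, and 0.0512 and 0.0874 without replicate 1 and 3 of menthol with Wnt3a) and *Thbs1* in those that left out a menthol library or replicate 1 or 3 of menthol with Wnt3a (adjusted p = 0.0684 to 0.140). *Tmem158* and *Akap12* held in 4 of the 12 fits, *Enc1*, *Glis3* and *Irx5* in 2 and *P2ry2* in 1, with adjusted p up to 0.245. The direction of these 11 genes could not change in these fits, because their menthol and menthol with Wnt3a libraries did not overlap. Over all 21 alternative fits, *Axin2* and *Klf5* were called in 21, *Isl1* in 19, *Irx3* in 15 and *Thbs1* in 13.

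The same step was also made without menthol, and those 6 libraries, Wnt3a and control, share none with the comparison above. All 11 genes differed in the same direction there, where 56.4% of the 11451 genes did. Of the 11, 7 were called there, against 0.437% of all genes, 10 had an unadjusted p under 0.05, against 15.1%, and 10 had groups that did not overlap, against 20.2%. Both comparisons took the spread of a gene from the same fit of all 12 libraries. Their p-values are therefore not independent, and a gene with a small spread is favoured in both. The exception was *Glis3*, with a log2 fold change of 0.24 with menthol and 0.07 without it (adjusted p = 0.456). The log2 fold changes without menthol were 0.51 for *Axin2* (adjusted p = 0.00875), 0.46 for *Klf5* (adjusted p = 0.000613), 0.50 for *Isl1* (adjusted p = 0.0121) and −0.41 for *Thbs1* (adjusted p = 0.000293). In the Wnt3a libraries *Axin2* stood at 6.56, 7.31 and 7.45 FPKM and in the control libraries at 5.07, 5.07 and 4.72 FPKM. The size of the change was larger with menthol for 9 of the 11, but they were chosen for passing with menthol. Of the 50 genes called without menthol, chosen the other way, 45 had the larger change without it, with a median size of 0.24 against 0.11 with menthol.

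For the called genes, no difference between the Wnt3a response with and without menthol was detected. The differences between the 2 changes of a gene were 0.01 to 0.21 on the log2 scale, with 95% confidence intervals of 0.103 to 0.221 to either side, and adjusted p was 0.715 to 0.982. For *Axin2* the difference was 0.21 (95% confidence interval −0.01 to 0.43) and for *Klf5* it was 0.02 (−0.12 to 0.16). Over all 11451 genes the difference called 0 genes (limma), with 800 (6.99%) at an unadjusted p under 0.05 and 0 by limma voom on the recovered reads. Of the 50 genes called without menthol, 48 had the same direction with menthol, 34 of them at an unadjusted p under 0.05, and 7 were called in both. Across all genes, which are not independent replicates, the 2 sets of log2 fold changes had a Pearson r of 0.110.

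**Figure D3:**
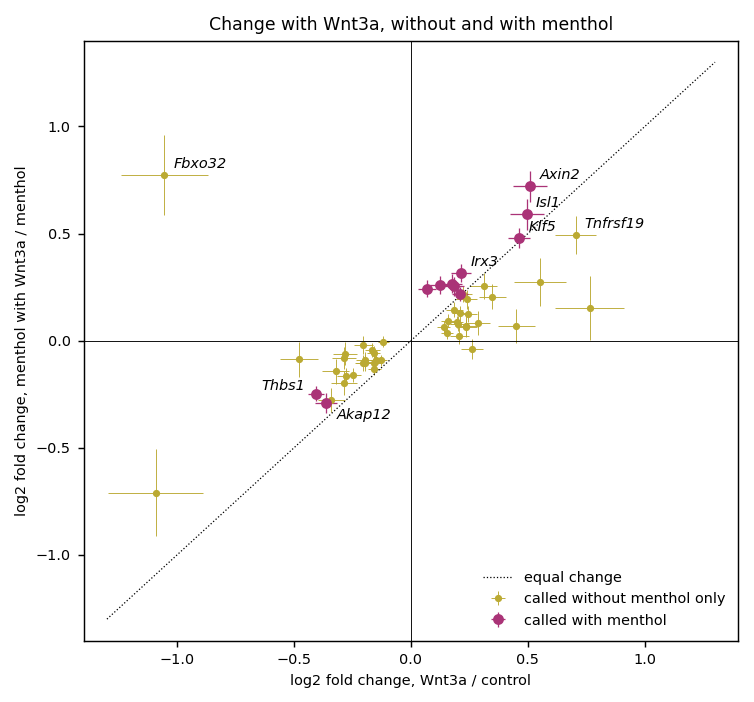
Log2 fold change with Wnt3a without menthol (x axis) and with menthol (y axis), each with its SE from limma, for the 11 genes called with menthol and the 43 called without menthol only; the dotted line marks equal change. All 11 called genes lie in the quadrants of equal direction, and *Fbxo32* is the gene far off in the opposite quadrant.

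Genes of the Wnt pathway were then read by role. Of 41 feedback genes and direct targets listed, 20 were tested, and *Axin2* was the only one called on log2(FPKM + 0.1), while limma voom also called *Tnfrsf19*. At an unadjusted p under 0.05, *Axin2* and *Tnfrsf19* were above 0 and *Jun* below, 15% of the list against 6.72% of all genes. The median log2 fold change of the list was 0.01, beside 0.00 for all genes. *Tnfrsf19*, a TNF receptor family member known as a Wnt target, stood at 7.83, 7.48 and 7.29 FPKM with menthol and 11.1, 11.2 and 9.65 FPKM with Wnt3a (log2 fold change 0.49, SE 0.0880, adjusted p = 0.0666, voom adjusted p = 0.0268). Its groups were well apart, and it passed without Wnt3a replicate 2 (adjusted p = 0.0235) or 3 (adjusted p = 0.0326) in the fit. *Tcf7*, *Myc* and *Ccnd1*, other textbook targets, had log2 fold changes of 0.31, −0.05 and 0.02 with adjusted p of 0.758, 0.899 and 0.969.

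Receptors and the machinery that carries the signal showed no gene called on log2(FPKM + 0.1) or by limma voom. Of 14 tested receptors and co-receptors 11 were above 0, as were 52.6% of all genes, with a median log2 fold change of 0.08. Without menthol 5 were above 0, as were 51.6% of all genes, and the median was −0.09. Only *Lgr4*, a receptor for R-spondin (log2 fold change 0.24, adjusted p = 0.732), and *Fzd4* (−0.21, adjusted p = 0.647) had an unadjusted p under 0.05. With a pseudocount of 1, or a minimum mean of 1 FPKM, the median of these receptors was 0.04 or 0.03, and it was 0.02 without menthol replicate 1 and 0.04 without replicate 1 or 2 of menthol with Wnt3a. Among the 16 tested genes of β-catenin, the destruction complex and Dishevelled, *Axin1* alone had an unadjusted p under 0.05 (log2 fold change 0.08, adjusted p = 0.680). *Ctnnb1*, which encodes β-catenin, was at 178.4 ± 2.35 FPKM (SD, n = 3) with menthol and 175.6 ± 0.457 FPKM with Wnt3a added (log2 fold change −0.02, 95% confidence interval −0.07 to 0.03). *Gsk3b* was at 22.9 ± 1.06 and 22.9 ± 0.561 FPKM, with a log2 fold change of 0.00 (−0.08 to 0.09). Of 14 TCF factors and β-catenin co-factors 2 had an unadjusted p under 0.05, the co-repressor *Tle3* (0.14, adjusted p = 0.479) and the repressor *Hbp1* (0.13, adjusted p = 0.634). Of 8 secreted antagonists in the file, *Wif1* was the one expressed above the minimum (0.971 ± 0.0442 against 0.921 ± 0.0889 FPKM). In the KEGG Wnt pathway, which includes *Axin2*, 99 of 149 genes were tested, and 10 were above and 3 below 0 at an unadjusted p under 0.05, 13.1% against 6.72% of all genes. The median was 0.01. Those not in the lists above were the ligands *Wnt4* (0.45, on a mean of 0.790 FPKM) and *Wnt7b* (0.13), the planar polarity genes *Vangl1* (0.15) and *Prickle1* (0.37), *Plcb3* (0.10), *Nfatc4* (0.21) and *Senp2* (−0.10), with adjusted p of 0.460 to 0.732.

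**Figure D4:**
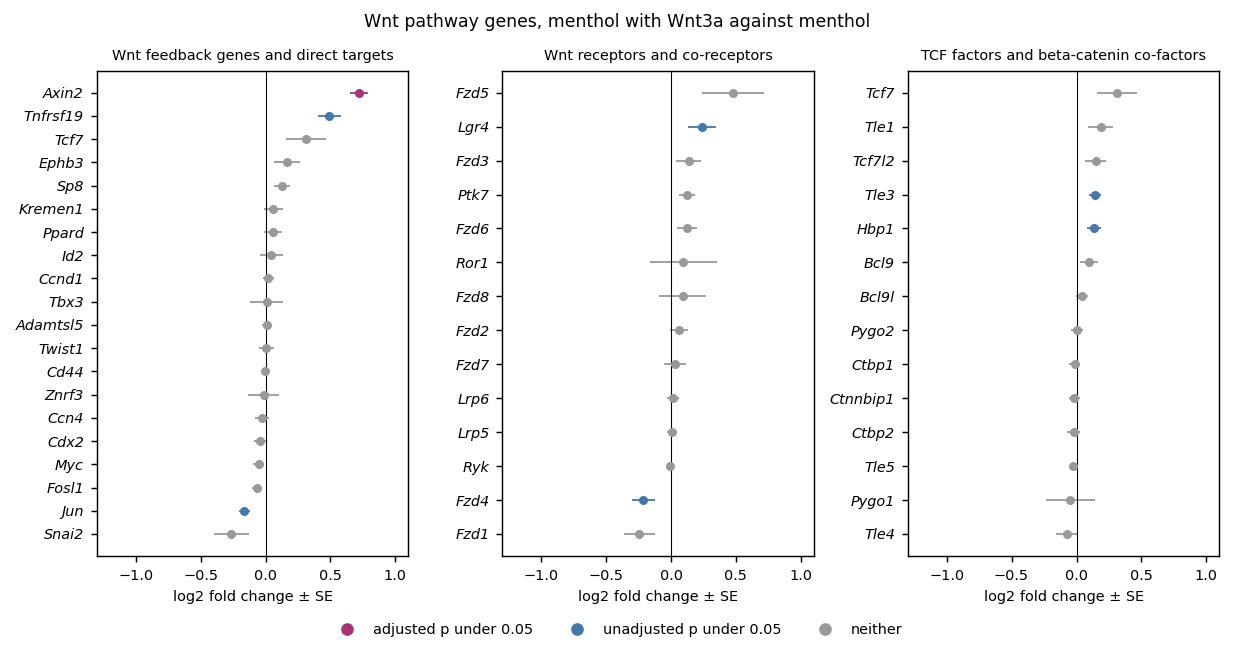
Log2 fold change with its SE (limma) for menthol with Wnt3a over menthol, for tested feedback genes and targets, receptors, and TCF factors with co-factors of the Wnt pathway. *Axin2* at 0.72 is the one called gene, *Tnfrsf19* follows at 0.49, and the medians of the panels are 0.01, 0.08 and 0.02.

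Calcium and cAMP signaling link TRPM8 and protein kinase A. No gene in the lists and KEGG pathways read for them was called on log2(FPKM + 0.1). *Akap12* and *P2ry2*, called above, are in none of these sets. None of 25 tested calcium channels, pumps and stores had an unadjusted p under 0.05, and their median log2 fold change was 0.00. Of 19 genes of cAMP synthesis, breakdown and kinase, *Prkar1b*, a regulatory subunit of protein kinase A, did, at 10.2, 10.2 and 9.18 FPKM with menthol and 11.4, 11.8 and 11.5 FPKM with both (log2 fold change 0.23, adjusted p = 0.279). Its groups were apart although it was not called. *Prkaca*, the catalytic subunit, was at 28.9 ± 1.56 and 29.3 ± 0.512 FPKM (log2 fold change 0.02, 95% confidence interval −0.08 to 0.12), and *Adcy6*, an adenylate cyclase, was at 7.58 ± 0.424 and 7.45 ± 0.516 FPKM (−0.03, −0.20 to 0.15). *Trpm8* itself lay under the minimum for testing, with 0.223, 0.201 and 0.197 FPKM with menthol and 0.243, 0.279 and 0.307 FPKM with both, on 63 to 97 reads. The KEGG calcium pathway had 2 genes above 0 (*Vegfa* and *Plcb3*) and 1 below (*Sphk1*, sphingosine kinase, −0.15, adjusted p = 0.285) at an unadjusted p under 0.05 among 84 tested, which is 3.57% against 6.72% of all genes. The KEGG cAMP pathway had 1 above (*Ptch1*) and 4 below (*Creb3l2*, *Jun*, *Fxyd2* and *Gli3*) among 92, which is 5.43%. *Fxyd2*, a regulatory subunit of the sodium pump, was furthest from 0, at 1.19, 0.545 and 0.732 FPKM with menthol and 0.451, 0.505 and 0.290 FPKM with both agents, on 9 to 37 reads (log2 fold change −0.80, adjusted p = 0.456). Its groups were narrowly apart, and the value was −0.53 without menthol replicate 1 and −0.35 with a pseudocount of 1. *Creb3l2*, a transcription factor of the CREB3 family, was at 1.80, 1.81 and 1.98 against 1.33, 1.38 and 1.54 FPKM (−0.37, adjusted p = 0.321), and limma voom called it (voom adjusted p = 0.0282), as it did *Ptch1*.

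Genes that respond to YAP, SRF and TGF-β included *Thbs1*, and most had log2 fold changes below 0. These regulators drive matrix, adhesion and contractile genes, and YAP acts through TEAD factors. Of 14 tested members 11 were below 0, as were 5433 of the 11451 genes, and the median log2 fold change was −0.07, which was −0.034 without menthol replicate 2 and −0.11 without menthol replicate 3. At an unadjusted p under 0.05 there were 5 members below 0 and 0 above, whereas 3.27% of all genes were below 0 by that rule. *Ccn1*, a secreted matrix protein and classical YAP target, stood at 28.5, 28.6 and 26.4 FPKM with menthol and 23.7, 22.7 and 22.5 FPKM with Wnt3a (log2 fold change −0.28, SE 0.0567, adjusted p = 0.149). *Lats2*, the kinase that restrains YAP, stood at 53.3, 53.2 and 53.2 against 48.0, 48.1 and 46.8 FPKM (−0.16, adjusted p = 0.149). In neither did the groups overlap, and limma voom called both (voom adjusted p = 0.0260 for *Ccn1* and 0.0226 for *Lats2*). The others were *Ankrd1*, a muscle and stress response protein (−0.24, adjusted p = 0.460), and *Vcl*, vinculin (−0.07, adjusted p = 0.715). Without menthol, *Ccn1* and *Lats2* had log2 fold changes of −0.34 (adjusted p = 0.0297) and −0.25 (adjusted p = 0.00741), and the median was −0.13. There, 7 members were below and 1 above 0 at an unadjusted p under 0.05, beside 6.91% and 8.17% of all genes. Members that differed little included *Ccn2* at −0.06.

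The promoters of *Thbs1* and *Ccn1* are shown because they belong to the members with the smallest p and hold the core letters read by TEAD factors (GGAATG, searched on both strands), in capitals. In *Thbs1* these begin 47 bases before the start on the strand of the gene (GRCr8, plus strand, chr3:125510000-125510249), and in *Ccn1* the match is to the opposite strand, 113 bases before the start (minus strand, chr2:237225690-237225939).
*Thbs1*: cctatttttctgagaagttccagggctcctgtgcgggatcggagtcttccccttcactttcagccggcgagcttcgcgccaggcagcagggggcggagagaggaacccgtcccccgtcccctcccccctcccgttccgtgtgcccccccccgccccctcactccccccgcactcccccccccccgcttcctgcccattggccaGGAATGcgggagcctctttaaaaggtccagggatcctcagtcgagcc
*Ccn1*: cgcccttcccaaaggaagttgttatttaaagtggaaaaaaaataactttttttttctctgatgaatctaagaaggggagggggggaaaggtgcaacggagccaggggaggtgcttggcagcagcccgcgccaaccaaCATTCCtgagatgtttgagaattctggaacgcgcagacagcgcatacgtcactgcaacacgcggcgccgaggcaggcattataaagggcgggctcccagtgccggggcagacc
RefSeq windows of 300 bases were found for 9 of the 14 members, and 6 of the 9 held a match (*Ccn1*, *Ccn2*, *Amotl2*, *Acta2*, *Vcl* and *Thbs1*). The share was 13.9% of all promoters and 11.2% of those of tested genes. The list was chosen for genes that respond to YAP among others, which acts through TEAD factors, so its share says nothing about Wnt3a. Of these 6, 5 had log2 fold changes below 0, from −0.06 for *Ccn2* to −0.28 for *Ccn1*, and *Acta2* was at 0.17 (unadjusted p = 0.591). Of the 3 without a match, *Tgfb1i1* was at −0.06, *Axl* at −0.02 and *Skil* at 0.08.

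Cell cycle genes mostly had small log2 fold changes below 0. Of 26 members, all tested, 22 were below 0, as were 5433 of the 11451 genes, and the median log2 fold change was −0.08, which was −0.049 without replicate 2 of menthol with Wnt3a. At an unadjusted p under 0.05, 8 were below 0 (*Birc5*, *Cdk1*, *Cdc6*, *Rrm2*, *Mcm2*, *Mcm3*, *Mcm6* and *Mcm7*) and *E2f2* was above, beside 3.27% and 3.45% of all genes, and none passed after adjustment or by limma voom. *Birc5*, survivin, a mitosis and survival protein, was at 21.5, 21.4 and 23.3 FPKM with menthol and 19.7, 18.0 and 19.6 FPKM with Wnt3a (log2 fold change −0.21, adjusted p = 0.310). *Cdk1*, the kinase that starts mitosis, was at 52.7, 51.9 and 51.4 against 48.5, 47.1 and 49.1 FPKM (−0.11, adjusted p = 0.321). Their groups were apart by small margins. The 4 *Mcm* genes named, subunits of the helicase that licenses DNA replication, had log2 fold changes of −0.15 to −0.18 and adjusted p of 0.460 to 0.609. Without menthol the median of the list was −0.05, with 6 members below and 0 above 0 at an unadjusted p under 0.05, beside 6.91% and 8.17% of all genes. Of 269 KEGG pathways with at least 20 tested genes, DNA replication had the lowest median, −0.08 over 35 genes, with 9 below and 0 above 0 at an unadjusted p under 0.05, 25.7% against 6.72% of all genes. Genes that this pathway shares with the cell cycle list were not taken out.

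Metallothioneins, small zinc- and copper-binding proteins, had the median furthest from 0 among the 19 lists, with a wide spread between libraries. *Mt1* was at 458.3, 312.5 and 323.7 FPKM with menthol and at 287.3, 175.9 and 181.9 FPKM with both agents, while control libraries had 157.7, 93.1 and 116.6 FPKM. In all 4 groups replicate 1 was the highest, and the menthol and menthol with Wnt3a libraries were narrowly apart. The log2 fold change was −0.78 (SE 0.212, 95% confidence interval −1.23 to −0.32, adjusted p = 0.364). By limma voom on the recovered reads its adjusted p was 0.00293. *Mt2A* was at 1598, 1093 and 1172 FPKM against 1189, 744.7 and 827.8 FPKM, so its groups overlapped (−0.49, adjusted p = 0.527). The median of the 4 tested genes of this list, which include the metal-sensing transcription factor *Mtf1* at 0.03, was −0.58, and it was −0.33 without replicate 3 of menthol with Wnt3a. Without menthol, *Mt1* had a log2 fold change of −0.25 (adjusted p = 0.629), and the difference between the 2 changes was −0.53 (95% confidence interval −1.18 to 0.11, adjusted p = 0.744).

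**Figure D5:**
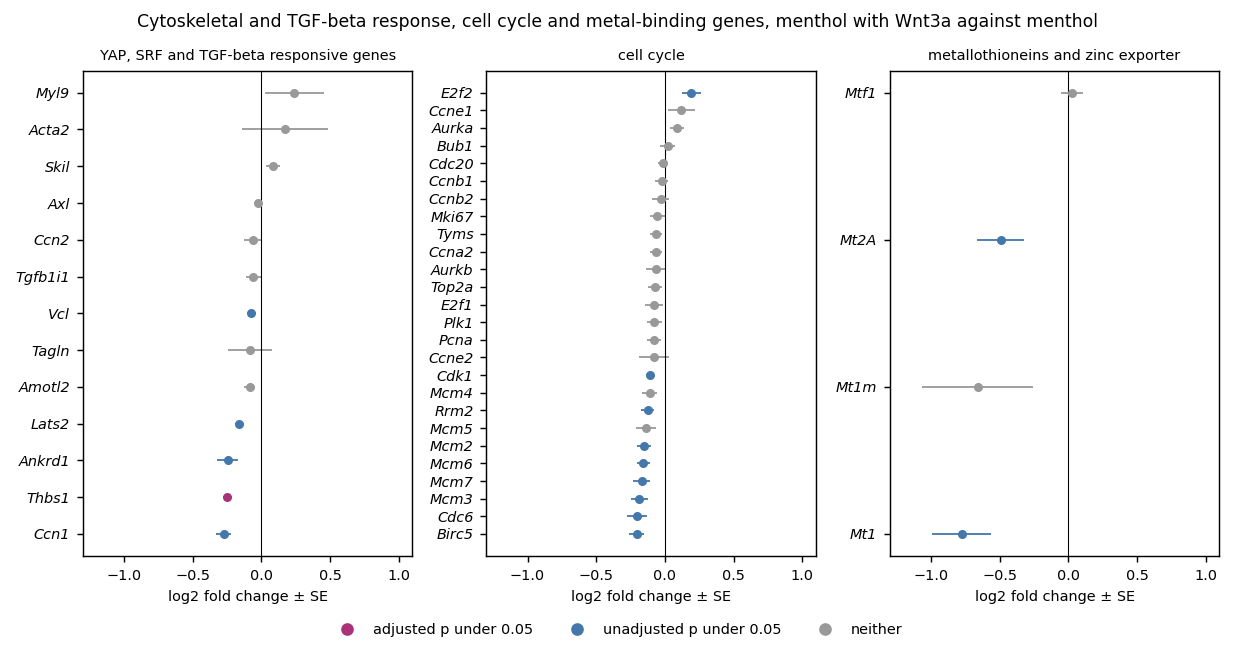
Log2 fold change with its SE (limma) for menthol with Wnt3a over menthol, for genes responsive to YAP, SRF and TGF-β, cell cycle genes and metallothioneins with related genes. Points lie mostly left of 0 in each panel, with medians of −0.07, −0.08 and −0.58, and *Thbs1* is the one called gene.

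Other lists held no gene called on log2(FPKM + 0.1), and limma voom called *Ptch1* alone among them. At an unadjusted p under 0.05 the share of all genes was 3.45% above and 3.27% below 0, 6.72% in all. Among FoxO factors and targets, 3 of 15 tested were above 0 at an unadjusted p under 0.05 (*Fbxo32*, *Foxo3* and *Cdkn1b*) and *Insr* was below, 26.7% of the list. Immediate early genes had 2 above (*Ier3* and *Klf4*) and 1 below (*Jun*) of 21 (14.3%), and ERK feedback genes had *Etv4* above and *Dusp6* below of 12 (16.7%). In the Hedgehog list *Ptch1*, the receptor and target of the pathway, was at 4.15, 3.90 and 4 FPKM with menthol and 4.70, 5.31 and 4.60 FPKM with Wnt3a (log2 fold change 0.27, adjusted p = 0.364, voom adjusted p = 0.0478), and *Gli3* had −0.14 (adjusted p = 0.634). These were 2 of 5 tested. *Id1* was the one of 6 BMP response genes (0.23, adjusted p = 0.450). The Notch, sterol synthesis and integrated stress response lists had 0 such genes among 6, 21 and 13 tested. In the sterol list 17 of 21 were below 0, as were 5433 of the 11451 genes, by at most 0.075, and the median was −0.023 (−0.013 without menthol replicate 2 and −0.015 without replicate 3 of menthol with Wnt3a). Of 11 tested genes among *Myc*, D cyclins and CDK inhibitors, *Cdkn1b* was the 1 with an unadjusted p under 0.05.

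The genes next in order of p were mixed in function. *Il1rl1*, the receptor for interleukin-33, had the smallest p after *Tnfrsf19*, at 125.6, 121.1 and 121.2 FPKM with menthol and 103.7, 110.3 and 105.2 FPKM with Wnt3a (log2 fold change −0.21, adjusted p = 0.0666). Its ligand *Il33*, looked up after this value was seen, was at 24.7, 23.4 and 25.1 against 28.4, 27.6 and 27.7 FPKM (0.19, adjusted p = 0.234). The groups of receptor and ligand lay apart in opposite directions. Neither was called on log2(FPKM + 0.1), and limma voom called both (voom adjusted p = 0.000602 for *Il1rl1* and 0.0196 for *Il33*). *Slc4a7*, a sodium bicarbonate transporter (0.22, adjusted p = 0.0666), *Cited2*, a transcriptional co-regulator (−0.16, adjusted p = 0.0727), *Bhlhe40*, a basic helix-loop-helix repressor (0.15, adjusted p = 0.0953), and *Trim47* (0.20, adjusted p = 0.113) were also among the 10, with *LOC691921*, *LOC100911534*, *Ccn1* and *Lats2*. Limma voom called *Slc4a7* (voom adjusted p = 0.00140), *Cited2* (0.0150) and *Bhlhe40* (0.0406). Of these 10, 9 had the same direction without menthol.

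The largest changes were not the best supported. Among genes with a mean of at least 1 FPKM and groups apart, the largest rises were those of *RT1-A1*, *Hoxa7* and *RGD1564482* and the largest falls those of *LOC687679*, *Tmem249* and *Mt1*. *RT1-A1*, a class I histocompatibility gene, was at 21.1, 18.4 and 20.8 FPKM with menthol and 33.4, 50.1 and 42.2 FPKM with both, a log2 fold change of 1.04 (SE 0.250, adjusted p = 0.274, voom adjusted p = 0.00997). Control libraries had 21.0, 49.4 and 48.7 FPKM, so 1 control library lay with the menthol group, and without that library, control replicate 1, the adjusted p was 0.00536 for this change and 0.0160 for its difference from the change without menthol. This gene has near-identical copies, and its reads may have been divided among them. *Hoxa7*, *RGD1564482*, *LOC687679* and *Tmem249* had log2 fold changes of 0.85, 0.76, −0.94 and −0.78 on 10 to 81 reads per library, with adjusted p of 0.351, 0.607, 0.593 and 0.364.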

How the data were processed

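RNA of the 12 ND7/23 libraries was sequenced as paired reads. Per the supplementary methods, the authors cleaned reads with fastp, used HISAT for alignment and HTSeq-count for counts per gene, and they deposited FPKM values for 21556 genes in 1 column per library, without pooling replicates. The submitters' processing notes name the rat build mRatBN7.2. How reads from the mouse genome of this hybrid line were assigned is not given in the sources used here. FPKM is relative to the library total, so a few abundant genes can shift all others. The deposited table also holds KEGG pathway names, which were used.

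FPKM values came out as whole multiples of 1 read for 21556 of 21556 genes (tolerance 1e-09), which gave the recovered counts. For 1804 genes above 0 in 1 library this rests on 1 value. Confidence intervals are from limma and measure the spread between libraries. Read floors cover counting error only, and for a 1 kb gene 3 reads amount to 0.0772 to 0.0813 FPKM. Groups were taken from the sample labels. Genes with a mean of at least 0.5 FPKM were tested with limma 3.58.1 (R 4.3.3) on log2(FPKM + 0.1), with all 4 groups in 1 fit, a variance trend and Benjamini-Hochberg adjustment. Contrasts were menthol with Wnt3a against menthol, Wnt3a against control, and their difference. The test and the read recovery were tested on simulated data. Calls were made where the adjusted p was under 0.05. The study's own rule adds a 2-fold change, which is given beside it. The genes named were all called genes, the 10 with the next smallest p, in each of 19 lists and 3 KEGG pathways the members with an unadjusted p under 0.05 and at least the 2 smallest p, the 3 largest rises and falls among genes with a mean of at least 1 FPKM and groups apart, and *Ctnnb1*, *Gsk3b*, *Prkaca*, *Adcy6*, *Trpm8* and *Mt1*. Some list members are counted in the lists but are not reported by name or drawn here. *Crnde* and *Il33*, and other list members named without a test, were added after values were seen. The members, lists and rule were chosen with earlier results of these data known. Promoter sequences are from RefSeq (GRCr8), matched by gene identifier. Alternatives were pseudocounts of 0.01 and 1, a minimum mean of 1 FPKM or none, median-centred libraries, only the groups compared, a replicate block, limma voom on recovered reads, no variance trend, a 2-fold threshold and leaving out each library.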

Additional observations from a re-analysis of the deposited data

Results flagged for a closer look

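*Fbxo32*, a muscle-associated ubiquitin ligase and FoxO target, moved in opposite directions with Wnt3a depending on menthol, and every library took part. It stood at 0.422, 0.373 and 0.370 FPKM with menthol and 0.525, 0.905 and 0.824 FPKM with both agents, but at 0.807, 0.873 and 0.934 FPKM in control and 0.395, 0.386 and 0.324 FPKM with Wnt3a alone. The log2 fold change was 0.77 with menthol (limma adjusted p = 0.278) and −1.05 without it (adjusted p = 0.0354), a difference of 1.83 (95% confidence interval 1.26 to 2.40) that did not pass over all genes (adjusted p = 0.0956, the smallest of that test). The size of this difference depended on the pseudocount, with 0.78 at a pseudocount of 1 and 2.12 at 0.01. Without replicate 1 of menthol with Wnt3a this adjusted p was 0.0114, and without any other library it was 0.146 to 0.520. The menthol and menthol with Wnt3a libraries held 15 to 37 reads of it.

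*Plcb3*, a phospholipase C that acts downstream of G proteins, was higher in every library with Wnt3a when menthol was present (16.0, 16.7 and 16.7 against 17.6, 17.4 and 17.9 FPKM) and lower in every one without menthol (17.4, 17.0 and 17.1 in control, 15.8, 15.8 and 16.9 FPKM with Wnt3a). The difference of the log2 fold changes was 0.19 (adjusted p = 0.715). Of the 11451 tested genes, 50 had groups apart in opposite directions in this way.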

How the results depend on the processing

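The 11 calls for menthol with Wnt3a against menthol became 2 with no FPKM minimum, 5 with libraries centred on their median, 33 with limma voom on recovered reads (9 of them among the 11), 2 with no variance trend, 4 with only the groups compared and 0 with a 2-fold threshold, and ranged from 3 to 14 without 1 library. The 50 calls for Wnt3a against control became 9 with no FPKM minimum, 303 by voom, 2 with no variance trend, 17 with only the groups compared and 2 with the 2-fold threshold, and ranged from 6 to 291 without 1 library. The 0 calls for the difference became 1 with no FPKM minimum and ranged from 0 to 1 without 1 library. The remaining alternatives, pseudocounts, a minimum mean of 1 FPKM and, for the 50 calls, centring, stayed within 1.5 times. The cause of these shifts was not tested.

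The replicate number as a block gave 10 calls, of which 7 were among the 11, with 5 raised and 5 lowered. Whether the numbers pair the samples is not known, as no label says what they mark. The deviations of same-numbered menthol and menthol with Wnt3a libraries correlated at 0.153, −0.001 and 0.047, and *Mt1* passed under the block (limma adjusted p = 0.00198).

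List medians held to within 1 SD of the libraries' spread in 195 of 197 alternatives, except the Wnt receptors, with 0.0357 at a pseudocount of 1 and 0.0308 at a minimum mean of 1 FPKM. Of these alternatives, the replicate block, no variance trend, only the groups compared and no FPKM minimum could not move a median. They left each log2 fold change and the list members as they were. Leaving out a control or Wnt3a library could not move one either. Without 1 library the medians ranged from 0.0218 to 0.0762 for Wnt receptors, 0.0025 to 0.0777 for TCF factors and co-factors, −0.00084 to 0.10 for the FoxO list, −0.0062 to 0.0432 for *Myc*, D cyclins and CDK inhibitors, −0.11 to −0.0342 for the YAP, SRF and TGF-β list, −0.849 to −0.325 for metallothioneins and −0.101 to −0.0491 for cell cycle genes. Those of the other lists lay between −0.137 (secreted antagonists, 1 gene) and 0.117 (BMP response genes). Among named genes, *Gsk3b* changed sign when libraries were centred (−0.0057) and ranged from −0.0344 to 0.0267 without 1 library, as *Prkaca* (−0.0223 to 0.0498) and *Adcy6* (−0.0721 to 0.0284) also crossed 0.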

Other observations

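The count-based fit (limma voom on the recovered reads) called 24 genes that the fit on log2(FPKM + 0.1) did not, 12 raised and 12 lowered, and 23 of the 24 had the same direction without menthol. Besides those named above, and picked by their values, they included *Maf*, a transcription factor (log2 fold change −0.26, voom adjusted p = 0.00826), *Tcf4*, a basic helix-loop-helix factor distinct from the TCF/LEF family (0.27, voom adjusted p = 0.00969), *Itga6*, the laminin receptor subunit (0.21, voom adjusted p = 0.0150), *Jak2*, a cytokine receptor kinase (0.23, voom adjusted p = 0.0250), and *Tnc*, tenascin C of the matrix (−0.20, voom adjusted p = 0.0403). The log2 fold changes given for these genes are those of limma voom. In the log2(FPKM + 0.1) fit the adjusted p of these genes was 0.211 to 0.364.

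Of 269 KEGG pathways with at least 20 tested genes, the highest median log2 fold changes were 0.07 for drug metabolism by cytochrome P450 (27 genes), 0.06 for glycine, serine and threonine metabolism (23 genes) and 0.06 for basal cell carcinoma (37 genes, which hold *Axin2* and Frizzled receptors). After DNA replication, the lowest were −0.05 for mismatch repair (22 genes) and −0.05 for base excision repair (34 genes). Without menthol the medians of these pathways, in the same order, were 0.03, 0.05, −0.05, −0.02 and −0.03.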
